A study of Mus musculus with 42 samples.

Results

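Male and female mice fed Rapa (rapamycin, an inhibitor of the mTOR kinase) were compared for the levels of their autosomal liver transcripts, and each male-female difference was set against the difference in mice fed the control diet. The comparison rested on 12 Rapa males and 11 Rapa females of the 42 mice measured, and it took in every tested probe of the microarray whose gene lies on 1 of the 19 autosomes. These were 11621 of 12719 tested probes, for 8634 genes. The 349 probes of the X chromosome, the 5 of the Y chromosome, 5 with a symbol and no chromosome and those without a single gene symbol (5.81% of the tested probes) were left out.

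All mice were C57BL6/N, 25 months old and fed ad libitum, and the liver RNA of each was hybridized to an Illumina Mouse Ref8 array of its own. The Rapa males and Rapa females had 14 ppm of encapsulated Rapa in the diet from the age of 19 months, for 6 months, and the 10 control males and 9 control females had the same diet with the empty Eudragit capsule. The labels name no transgene or deletion in any group. A level below is the log2 of the deposited signal after quantile normalization over the 42 arrays, and a ratio is the level in males minus the level in females on that log2 scale, with its standard error (SE).

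The adult liver is among the most sexually dimorphic organs of the mouse. Males release growth hormone in pulses with long gaps and females release it almost continuously, and the transcription factor STAT5B passes this difference on to hepatocytes, where the repressor BCL6 holds down genes of the female pattern in males and CUX2, made in females, holds down genes of the male pattern. Major urinary proteins, cytochrome P450 enzymes of steroids and fatty acids, conjugating enzymes and transporters are the best known genes under this control.

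A transcript was called different between males and females where the adjusted p was under 0.01 and the absolute ratio over 1 (more than a doubling), which does not mean that every mouse of the groups lay apart. In the Rapa mice 86 of the 11621 autosomal transcripts (0.74%) were called, for 81 genes. Of these, 54 were higher in males (0.465% of those tested, 52 genes) and 32 were higher in females (0.275%, 29 genes). In the control mice 137 were called (1.18%), of which 86 were higher in males (0.74%) and 51 in females (0.439%). Both diets shared 50 of the calls, which is 58.1% of the Rapa calls and 36.5% of the control calls, and all 50 had the same direction on both diets (30 higher in males, 20 higher in females). When each array was centred on its median in place of quantile normalization, the calls on Rapa numbered 42 in the male direction and 39 in the female direction, and on control 144 and 25. Centring put the median ratio of all autosomal transcripts at -0.05 on Rapa and 0.14 on control, so the balance of the directions is given relative to the quantile normalization. At an adjusted p under 0.05 and 1.5-fold the numbers were 304 in the male direction and 158 in the female direction on Rapa, but 272 and 316 on control, where the balance turned round. The ratios of the 11621 transcripts correlated between the diets at a Pearson r of 0.58. Rapa and control ratios came from different mice, but all probes of a diet shared its arrays and are not independent replicates.

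The labels of the sexes and the quality of the arrays were checked first. The Y-linked Eif2s3y was detected in 12 of 12 Rapa males and 0 of 11 Rapa females, and Xist, the RNA that silences an X chromosome, was detected in 11 of 11 Rapa females. The median signal was 159 to 188 in Rapa males and 111 to 154 in Rapa females, and the background, taken as the 5th percentile of the signals, was 116 to 141 in Rapa males and 78.4 to 108 in Rapa females. The background of every Rapa male thus lay above that of every Rapa female, so sex and array background cannot be told apart here, and small ratios were read with this in mind. At the probes that no array detected (9720 in all) no ratio passed the call, and the largest absolute ratio was 0.60. At a looser threshold (adjusted p under 0.05, absolute ratio over 0.15), 428 of these probes (4.4%) passed in the Rapa mice, 345 lower and 83 higher in males.

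Levels of neutrophil markers leaned to the females without passing the call. All 13 measured neutrophil markers had a ratio below 0 on Rapa (median -1.39; 0 called), and the mean level of the list was 7.37 to 8.89 in Rapa males (median 7.69) and 7.30 to 11.57 in Rapa females (median 8.35). It stood more than 1 above the median of all arrays in 1 of 12 Rapa males and 5 of 11 Rapa females, and in 0 of 10 control males and 3 of 9 control females. The granule genes Ngp, Camp and Mpo were detected in 3, 3 and 2 of 12 Rapa males and in 7, 6 and 6 of 11 Rapa females. The defining genes of hepatocytes were present in all groups, and the median ratio of the 13 measured hepatocyte markers was -0.11 on Rapa and -0.19 on control, with 0 called on either diet. In whole liver, fewer cells of a type and less RNA per cell cannot be told apart. The part of neutrophils in the results was not tested, and counts without the mice of a high neutrophil level stand beside those they move.

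Promoters of the leading genes were searched for the motif that STAT5 proteins bind, TTCNNNGAA on both strands, because STAT5B carries the sex difference in growth hormone to the liver. Promoter sequence from 250 bases before to 50 after the start site was found for 6 of the 12 leading genes of the male direction and 11 of the 12 of the female direction, and the motif stood in 1 and 2 of them. Those 3 promoters are printed from RefSeq (GRCm38.p6), 5′ to 3′ on the strand of the gene, with the motif in capitals. They are Gsta1 (chr9:78230419-78230718, + strand, motif 162 bases before the start site), A1bg (chr15:60921221-60921520, - strand, 84 bases before) and Slc22a26 (chr19:7802618-7802917, - strand, 141 bases before).
Gsta1: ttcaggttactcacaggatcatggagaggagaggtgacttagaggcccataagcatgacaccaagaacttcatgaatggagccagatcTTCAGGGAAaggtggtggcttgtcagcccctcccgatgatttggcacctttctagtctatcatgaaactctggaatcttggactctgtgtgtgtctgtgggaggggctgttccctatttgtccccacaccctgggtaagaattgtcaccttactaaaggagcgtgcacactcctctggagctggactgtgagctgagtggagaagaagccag
A1bg: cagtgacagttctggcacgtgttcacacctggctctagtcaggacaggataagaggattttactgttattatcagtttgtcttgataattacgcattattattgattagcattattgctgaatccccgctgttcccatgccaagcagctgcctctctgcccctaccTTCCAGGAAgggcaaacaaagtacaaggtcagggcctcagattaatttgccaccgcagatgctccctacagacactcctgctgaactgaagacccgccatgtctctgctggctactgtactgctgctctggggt
Slc22a26: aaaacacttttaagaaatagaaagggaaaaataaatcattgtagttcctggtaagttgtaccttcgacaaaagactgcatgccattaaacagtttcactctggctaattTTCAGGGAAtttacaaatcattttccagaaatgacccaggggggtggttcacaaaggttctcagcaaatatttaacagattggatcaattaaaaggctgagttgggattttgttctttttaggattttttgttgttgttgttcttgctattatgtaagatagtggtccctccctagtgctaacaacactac
The motif was found in 8.3% of all 32851 promoters of the table. It was found in 5 of 48 promoters (10.4%) of genes higher in Rapa males and in 3 of 31 (9.68%) of genes higher in Rapa females. The form with 1 more base between the arms TTC and GAA, the spacing preferred by STAT6, stood in 6.95% of all promoters, in 4 of 48 of the male direction and in 0 of 31 of the female direction. Both shares for TTCNNNGAA were thus near the share in all promoters, and a match describes letters in this window and not a bound site.

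Cytochromes P450 and major urinary proteins led the transcripts higher in Rapa males. Cyp2d9, a testosterone hydroxylase of male liver, had levels of 12.15 to 14.43 in Rapa males (median 13.81) and 8.02 to 9.38 in Rapa females (median 8.68). The ratio was 5.02 on Rapa (SE 0.24, adjusted p = 4.75e-20) and 5.41 on control, and no Rapa male overlapped the Rapa females. Cyp4a12a, a fatty acid omega-hydroxylase that forms 20-HETE, was at 9.31 to 12.49 in Rapa males (median 11.87) and at 7.00 to 7.30 in Rapa females (median 7.08), in whom it was not well above background on any array. It was at least 17.8-fold higher in Rapa males than in Rapa females, and the ratio of the measured levels was 4.41 (SE 0.27, adjusted p = 4.05e-16). Its near-identical neighbour Cyp4a12b, also not above background in Rapa females, was at least 7.22-fold higher in Rapa males (ratio 3.16), and a probe of one may read both.

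The measured ratio of Cyp4a12a was smaller on Rapa (4.41) than on control (5.44), with female levels at background on both diets, and this difference of -1.03 missed the threshold (95% interval -1.84 to -0.21, adjusted p = 0.0645). Without control male 3, whose Cyp4a12a level of 10.17 lay below the 12.31 to 13.30 of the other control males, the difference was -1.29 (adjusted p = 0.00475) and passed. It also passed with median centring (-1.31), with array weights (-1.04) and without Rapa male 4 (-1.11) or Rapa male 9 (-1.1).

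Mup21, a major urinary protein, was at 11.20 to 14.38 in Rapa males (median 13.19) and 8.26 to 10.48 in Rapa females (median 9.56), and these groups did not overlap. Its ratio was 3.66 on Rapa (SE 0.31, adjusted p = 2.47e-12) and 3.80 on control. Mup5 had a ratio of 3.03 on Rapa and 2.1 on control, and the lowest Rapa male (11.38) lay below the highest Rapa female (11.81). Only 1 of the 2 tested probes of Mup5 was called on Rapa. Genes of this cluster on chromosome 4 are near-identical copies, so a probe may read more than 1 of them.

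Nat8, an acetyltransferase of the endoplasmic reticulum, was at 10.49 to 11.49 in Rapa males (median 10.84) and 7.16 to 8.06 in Rapa females (median 7.63), with no overlap. The ratio was 3.24 on Rapa (SE 0.12, adjusted p = 1.77e-23) and 3.71 on control, and the difference of -0.47 (adjusted p = 0.0654) passed with median centring (-0.73, adjusted p = 0.00501) and with 1 of 8 mice left out in turn. Cidea, a protein of lipid droplets, spread widely, with 7.04 to 11.79 in Rapa males (median 9.30) and 6.87 to 7.94 in Rapa females (median 6.94), and the groups overlapped (ratio 2.35, SE 0.51, adjusted p = 3.99e-04). Olig1, a transcription factor best known from glial cells, had a ratio of 1.85 on Rapa and 2.29 on control.

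Another set of male-higher transcripts rested on wide spread among the Rapa males. Gsta1 and Gsta2, glutathione transferases whose probes may read each other, had ratios of 2.12 (SE 0.54, adjusted p = 0.00208) and 1.99 (SE 0.50, adjusted p = 0.00171) on Rapa and of 0.77 and 0.23 on control. Gsta1 was at 7.66 to 13.49 in Rapa males (median 9.93) and 6.96 to 11.17 in Rapa females (median 7.67). Gpnmb, a glycoprotein of macrophages and other phagocytic cells, was at 7.67 to 12.68 in Rapa males (median 9.03) and 7.29 to 9.95 in Rapa females (median 7.70), with a ratio of 1.75 (adjusted p = 0.00507). Groups overlapped for all 3 genes, and without the mice of a high neutrophil level the ratios were 1.63, 1.34 and 1.61 and no longer passed (adjusted p = 0.0634, 0.0663 and 0.0522). Gpnmb also fell short without any 1 of Rapa males 2, 6, 7 and 11 (ratios 1.47 to 1.64).

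**Figure D1:**
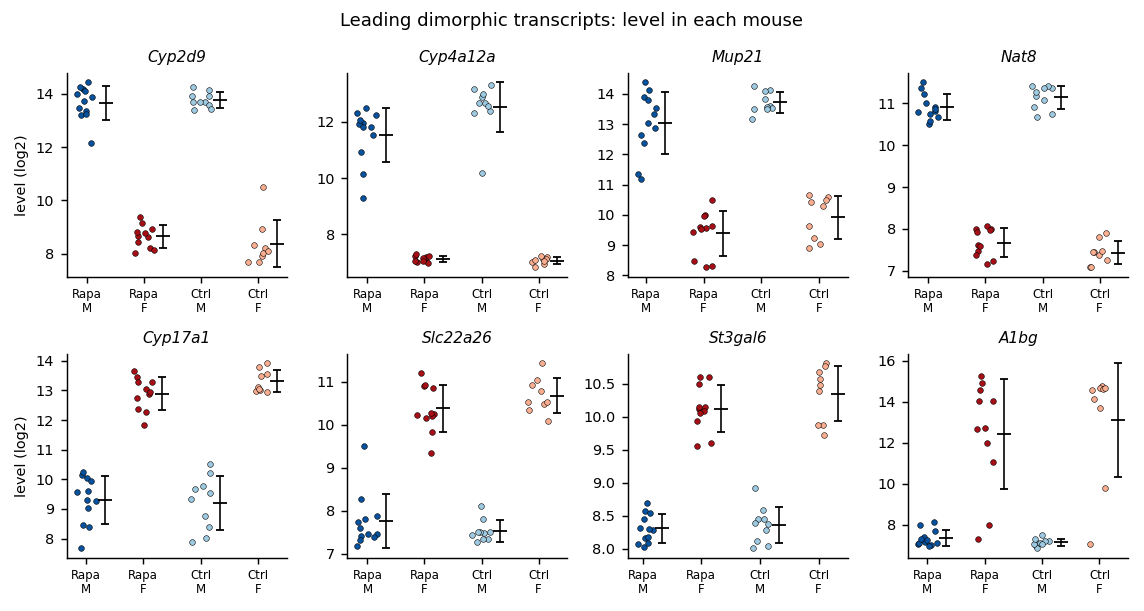
Levels (log2 normalized signal, vertical axis) of 4 transcripts higher in Rapa males (Cyp2d9, Cyp4a12a, Mup21, Nat8) and 4 higher in Rapa females (Cyp17a1, Slc22a26, St3gal6, A1bg), with 1 point per mouse and bars for the mean and SD of 12 Rapa males, 11 Rapa females, 10 control males and 9 control females. Rapa males and Rapa females overlap for Slc22a26 and A1bg and not for the other 6 genes, and the 2 low Rapa females of A1bg are at 7.29 and 7.99.

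Among transcripts higher in Rapa females, A1bg, a plasma protein of the immunoglobulin superfamily, had the largest ratio and the widest spread. It was at 6.96 to 8.16 in Rapa males (median 7.21) and at 7.29 to 15.23 in Rapa females (median 12.74), a ratio of -5.06 on Rapa (SE 0.76, adjusted p = 1.59e-06) and -5.97 on control. Rapa females 9 and 11, at 7.29 and 7.99, lay within the range of the Rapa males. Control females 9 and 5 were likewise the lowest of their group, at 7.06 and 9.79, and all 4 of these mice had a high neutrophil level. Rapa females 3, 5 and 8 and control female 6 also had a high neutrophil level and were not among these 4. A link between the 2 was not tested.

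Cyp17a1, the steroid 17-alpha-hydroxylase, was at 7.67 to 10.26 in Rapa males (median 9.44) and 11.84 to 13.65 in Rapa females (median 12.93), with no overlap. The ratio was -3.58 on Rapa (SE 0.28, adjusted p = 4.64e-13) and -4.11 on control. Slc22a26, an organic anion transporter, was at 7.18 to 9.50 in Rapa males (median 7.53) and 9.33 to 11.20 in Rapa females (median 10.24), where only the edges of the groups overlapped (ratio -2.62 on Rapa and -3.14 on control). Eci3, an enoyl-CoA isomerase of fatty acid oxidation, was at 7.20 to 7.60 in Rapa males and 7.87 to 10.31 in Rapa females, again without overlap (ratio -1.95).

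The Cyp2b enzymes, P450s of drug metabolism that the receptor CAR induces, were higher in Rapa females by 4 probes of near-identical genes. Cyp2b13 was at 6.95 to 10.33 in Rapa males (median 7.70) and 9.49 to 13.37 in Rapa females (median 10.64), a ratio of -2.89 on Rapa (SE 0.52, adjusted p = 2.91e-05) and -1.30 on control, and it was 1.86 higher in Rapa females than in control females (adjusted p = 0.0131). The difference between its 2 ratios did not pass (-1.59, 95% interval -3.14 to -0.04, adjusted p = 0.142). Cyp2b9, Cyp2b23 and Cyp2b10 had ratios of -2.52, -2.23 and -2.22 on Rapa and of -1.44, -1.52 and -2.58 on control, with overlapping groups, and Cyp2b9 no longer passed without Rapa females 1 to 4 (ratio -2.40, adjusted p = 0.0118), whose background was the lowest.

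Nt5e, the ectonucleotidase that forms adenosine, and St3gal6, a sialyltransferase, separated the Rapa groups completely. Nt5e was at 8.46 to 9.90 in Rapa males (median 9.40) and 10.50 to 11.80 in Rapa females (median 11.19), with ratios of -1.89 on Rapa and -2.05 on control, and its other probe gave -1.36 and -1.45. St3gal6 was at 8.03 to 8.69 in Rapa males (median 8.29) and 9.56 to 10.61 in Rapa females (median 10.12), with ratios of -1.82 (SE 0.13) on Rapa and -2.00 on control. Dct, an enzyme of melanin synthesis, had ratios of -1.94 and -1.76. Mt1, a metallothionein, had a ratio of -1.63 on Rapa (adjusted p = 0.006) that fell short without the mice of a high neutrophil level (-1.05, adjusted p = 0.112) and when any 1 of 11 Rapa mice was left out (-1.47 to -1.57).

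Of the 86 transcripts called on Rapa, 28 (32.6%) had Rapa males and Rapa females that did not overlap at all, against 300 of all autosomal transcripts (2.58%), the 28 included. By direction, the Rapa groups did not overlap for 176 transcripts higher in males (1.51%) and 124 higher in females (1.07%). On control 69 of 137 called transcripts did not overlap (6.46% of all).

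The 173 transcripts called on either diet, for 155 genes, were then divided by the difference between the ratio on Rapa and the ratio on control, the interaction of sex and diet. The same looser threshold was used for it, which 2363 of the 11621 autosomal transcripts passed (20.3%), 975 with a more positive ratio on Rapa (8.39%) and 1388 with a more negative ratio (11.9%). Smaller and larger refer to the absolute ratio, so either class also takes in transcripts whose ratio changed sign. A called interaction made the difference smaller on Rapa for 33 transcripts (30 genes) and larger for 16. A further 15 (14 genes) held, which means that they were called on both diets in the same direction, had no called interaction and had a 95% interval of the interaction within 1 of 0. The numbers of smaller and larger differences moved with the processing, to 77 and 9 with median centring, 68 and 56 with normexp background correction, and 9 and 2 when the transcripts were chosen by the mean of both diets' ratios. For the other 109 the data gave no decision, and of these 33 were called on both diets. Most of those, 84 of 109, had a smaller absolute ratio on Rapa, but choosing transcripts by a call on either diet, with more calls on control, itself favours this direction. The median SE of the interaction was 0.30 for the 173 and 0.108 for all transcripts.

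**Figure D2:**
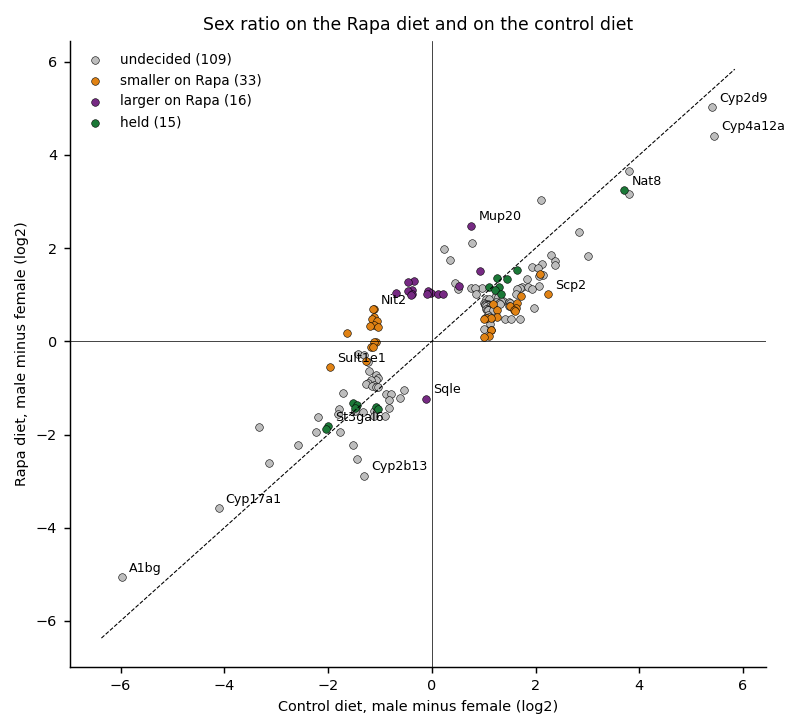
Ratio of males to females (log2) on Rapa (vertical axis) against the same ratio on control (horizontal axis) for the 173 autosomal transcripts called on either diet, coloured by class: 33 smaller on Rapa, 16 larger, 15 held and 109 without a decision. The dashed line marks equal ratios, and the transcripts at both ends lie beside it, with 5.02 on Rapa and 5.41 on control for Cyp2d9 and -5.06 and -5.97 for A1bg.

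Held transcripts were spread over both directions, 8 higher in males and 7 higher in females, and none of the 15 passed the test of diet in either sex. In males they were Nat8 (above), the lipid droplet proteins Cidec (1.53 on Rapa; on control not above background in any female, and at least 2.14-fold higher in males) and Plin4 (1.09 and 1.22), the lysosomal sulfatase Arsa (1.37 and 1.25), the glutathione transferase Gstp2 (1.17 and 1.29), which shares sequence with Gstp1, Tmem19 (1.16 and 1.10), the progestin receptor Paqr7 (1.01 and 1.34) and Cyp2c67 (1.34 and 1.45), whose brighter probe disagreed (-0.03 and -0.43). Tmem19 had the narrowest bound, with an interaction of 0.06 (95% interval -0.24 to 0.36). The interval of Nat8 (-0.84 to -0.10) did not include 0, so its ratio held only in the sense of the limit of 1. In females they were St3gal6, Nt5e by both probes, Sybu (-1.32 and -1.52), Rcan2, a calcineurin inhibitor (-1.42 and -1.08), Acnat2, an acyltransferase of peroxisomes (-1.46 and -1.04 by 1 probe, while the other, with -0.13 and -1.13, fell among the smaller differences), and Cux2. The other probe of Sybu (-0.79 and -1.05) gave no decision, and only 1 of the 2 tested probes of Cux2 was called on Rapa. With the limit drawn at 1.5-fold in place of 1, 5 of the transcripts held.

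Cux2, the repressor of male-pattern genes in females, was at 6.78 to 8.10 in Rapa males (median 7.02), detected in 1 of 12, and at 7.62 to 9.21 in Rapa females (median 8.71), detected in 11 of 11. The ratio was -1.43 on Rapa (SE 0.19, adjusted p = 9.79e-08) and -1.49 on control by the measured levels. Since it was detected in 0 of 10 control males and 8 of 9 control females, the control difference is a bound (at least 2.23-fold lower in control males), and holding, as for Cidec, rests in part on levels at background. Bcl6, its counterpart in males, was called on Rapa alone, with 9.03 to 11.57 in Rapa males (median 11.18) and 9.29 to 10.63 in Rapa females (median 9.68). Its ratio was 1.12 on Rapa (SE 0.27, adjusted p = 0.00111) and 0.51 on control, but the difference between them did not pass (0.61, 95% interval -0.20 to 1.42, adjusted p = 0.296). Its level was 1.1 higher in Rapa males than in control males (adjusted p = 0.0435), the single male diet change among the 109 without a decision. Bcl6, Scp2, Il1rap, Cyp7a1, Hsd3b5 and Hamp2, and the further members of classes listed below without levels, were chosen after their values were seen.

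In transcripts with a smaller difference on Rapa, the test of diet passed mostly in females. The array background was 76.5 to 89.7 in control females, 78.4 to 80.3 in Rapa females 1 to 4 and 102 to 108 in Rapa females 5 to 11. Diet and array background thus went together for Rapa females 5 to 11 and not for Rapa females 1 to 4. The part of the background in these changes was not tested. Of the 33, 29 passed the test of diet in females (15 lower and 14 higher on Rapa), against 2495 of all autosomal transcripts (21.5%; 1073 or 9.23% lower, 1422 or 12.2% higher). In males 1 of the 33 passed, against 72 of all (0.62%). Because a called interaction is itself the male diet change minus the female one, a diet change in at least 1 sex is built into the choice of the 33, and nothing is read from these counts against the shares over all transcripts. Of the 33, 15 were higher in control females and 18 higher in control males, 31 were called on control alone, and 9 had ratios of opposite sign on the diets. These 9 were Lyz2, Nit2, Gng5, Serpinc1, Rida, Hsd17b6, Ctss, Selenop and Txn1, with negative ratios on control and positive ratios on Rapa. For them the direction turned round rather than the difference only shrinking. The class depended on which mice were included. The arrays of control females 6 to 9 stood apart, with a median signal of 141.7 to 151.7 against 110.6 to 124.4 in control females 1 to 5. They detected 9519 to 10406 probes, against 10765 to 11043. Without control females 6 to 9, 15 of the 33 still had a called interaction and 10 kept the class. Without the mice of a high neutrophil level 22 had a called interaction and 14 kept the class.

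Serpinc1, the coagulation inhibitor antithrombin, was at 10.15 to 11.56 in Rapa males (median 10.63) and 9.70 to 10.96 in Rapa females (median 10.19), and at 9.96 to 10.72 in control males (median 10.41) and 10.93 to 12.05 in control females (median 11.50). The control sexes did not overlap and the Rapa sexes did. The ratio was 0.47 on Rapa and -1.16 on control, an interaction of 1.63 (95% interval 1.18 to 2.08, adjusted p = 7.63e-07). The gene had 2 tested probes, and the other fell outside the class of a smaller difference.

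Nit2, an amidase of glutamine breakdown, was at 8.64 to 9.46 in Rapa males (median 9.27) and 7.78 to 9.00 in Rapa females (median 8.37), and at 8.37 to 9.19 in control males (median 8.89) and 9.44 to 10.58 in control females (median 9.97). Its ratio was 0.69 on Rapa and -1.13 on control, and it was 1.52 lower in Rapa females than in control females (adjusted p = 1.41e-10). Without control females 6 to 9 the interactions of Serpinc1 and Nit2 were 1.28 and 1.74 and still passed. Nit2 also had 2 tested probes, the other outside the class.

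Selenop, which carries selenium in plasma, passed the test of diet in both sexes, 0.48 higher in males and 0.98 lower in females on Rapa (ratio 0.36 on Rapa and -1.11 on control). Rida, a deaminase that clears reactive enamines, Gng5, a G protein subunit, and Txn1, the cytosolic thioredoxin, had ratios of 0.51, 0.70 and 0.30 on Rapa and of -1.12, -1.11 and -1.04 on control. Selenop and Txn1 had 2 tested probes and Rida 4, and only the probe given for each fell in the class. Hsd17b6, a hydroxysteroid dehydrogenase of androgen and retinol metabolism, had ratios of 0.33 and -1.18, and its interaction of 1.51 no longer passed without control females 6 to 9 (1.34, adjusted p = 0.0522) or without the mice of a high neutrophil level (1.37, adjusted p = 0.0832). Control female 7, at 12.15, lay above the 10.06 to 11.05 of the other control females for this gene.

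Sult1e1, the estrogen sulfotransferase, was at 6.90 to 7.43 in Rapa males (median 7.01) and 6.87 to 8.31 in Rapa females (median 7.52), and at 6.86 to 7.06 in control males (median 6.99) and 6.98 to 10.97 in control females (median 9.03). It was 1.31 lower in Rapa females than in control females (adjusted p = 2.22e-04), and the ratio was -0.55 on Rapa and -1.96 on control (interaction 1.41, adjusted p = 0.0039). It was detected in 1 of 12 Rapa males and 7 of 11 Rapa females, and in 0 of 10 control males and 8 of 9 control females, so it was at least 3.16-fold lower in control males than in control females.

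Lyz2 and Ctss, the lysozyme and the cathepsin of macrophages, also had smaller differences. Lyz2 was at 10.62 to 12.00 in Rapa males (median 11.25) and 10.14 to 12.53 in Rapa females (median 10.96), and at 9.91 to 11.55 in control males (median 10.49) and 11.20 to 13.78 in control females (median 12.33). The interaction was 1.82 (95% interval 1.04 to 2.60, adjusted p = 6.83e-04), but its other, brighter probe had ratios of -0.33 on Rapa and -0.53 on control. Ctss had ratios of 0.44 on Rapa and -1.05 on control. The 12 measured macrophage markers had a median ratio of -0.23 on Rapa and -0.55 on control, with 0 called on either diet, and mean levels of 9.29 to 10.84 in Rapa males and 9.56 to 11.19 in Rapa females, and 9.00 to 10.45 in control males and 9.52 to 10.62 in control females. The part of macrophages in these 2 transcripts was not tested.

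The 18 transcripts of this class that were higher in control males had ratios of the same direction on Rapa, but smaller ones. Scp2, a sterol carrier of peroxisomes, had a ratio of 1.02 on Rapa and 2.23 on control by 1 of its 3 probes and was called on both diets, as was Ociad2 (1.45 and 2.08). Aox3, an aldehyde oxidase (0.98 and 1.72), Mug1, a protease inhibitor of plasma (0.66 and 1.59), the conjugate exporters Abcc2 (0.51 and 1.06) and Abcc3 (0.25 and 1.14), and Hao1, a peroxisomal oxidase (0.50 and 1.15), were called on control alone. Il1rap, a subunit of the interleukin 1 receptor, gave 0.66 to 0.82 on Rapa and 1.6 to 1.64 on control by 3 of its probes. Abcc2 had 2 tested probes, and the other fell outside this class.

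**Figure D3:**
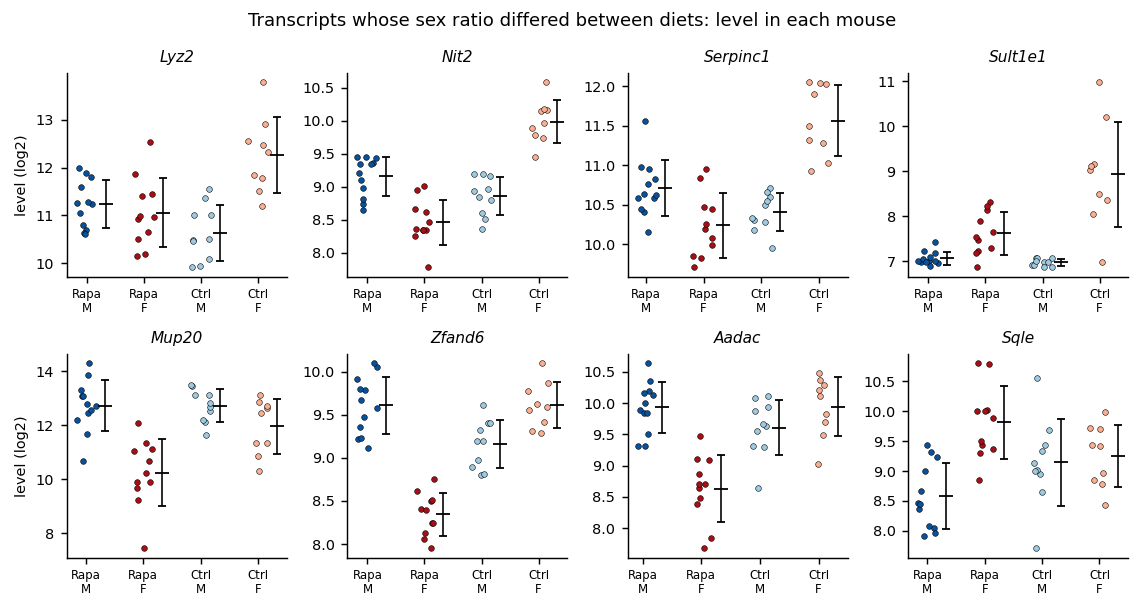
Levels (log2 normalized signal, vertical axis) of Lyz2, Nit2, Serpinc1 and Sult1e1, whose male-female difference was smaller on Rapa, and of Mup20, Zfand6, Aadac and Sqle, whose difference was larger, with 1 point per mouse and bars for the mean and SD of each group. The median of the Rapa females lies below that of the control females for each of these genes but Sqle, where Rapa females (8.85 to 10.80) lie above most Rapa males (7.92 to 9.44). Smaller and larger refer to the absolute ratio, and the ratios of Lyz2, Nit2, Serpinc1, Zfand6 and Aadac had opposite signs on the diets.

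All 16 transcripts with a larger difference were called on Rapa alone, and 15 of them were higher in Rapa males. In the same 15 the level was lower in Rapa females than in control females by the test of diet (background 9.23%), and in males 0 of the 16 passed (background 0.62%), directions that the choice by interaction and Rapa call largely fixes. For 10 of the 16 the ratio on control had the opposite sign. Without control females 6 to 9, 12 of the 16 kept their class, without Rapa females 1 to 4, 15 did, and without the mice of a high neutrophil level 13 still had a called interaction and 6 kept the class.

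Zfand6, a zinc finger protein that binds ubiquitin, was at 9.11 to 10.10 in Rapa males (median 9.63) and 7.95 to 8.75 in Rapa females (median 8.39), with no overlap. The ratio was 1.26 on Rapa (SE 0.12, adjusted p = 3.59e-11) and -0.45 on control, and the interaction was 1.72 (95% interval 1.37 to 2.07). Only 1 of its 2 tested probes was called on Rapa, and the other fell outside this class. Aadac, an esterase of the endoplasmic reticulum, was at 9.31 to 10.64 in Rapa males (median 9.95) and 7.68 to 9.48 in Rapa females (median 8.70), with ratios of 1.30 on Rapa and -0.34 on control.

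Ptma, the chromatin protein prothymosin alpha, Ist1, of the ESCRT machinery, the mitochondrial subunits Atp5e of ATP synthase and Sdhd of complex II, and Slc38a4, an amino acid transporter, had ratios of 1.00 to 1.10 on Rapa and of -0.46 to -0.08 on control. For Ist1 only 1 of 3 tested probes was called on Rapa. Without the mice of a high neutrophil level the ratios of Aadac, Atp5e, Sdhd and Slc38a4 were 0.99, 0.89, 0.75 and 0.91 and no longer called. Slc38a4 also had no called interaction without control females 6 to 9 (0.75, adjusted p = 0.11). Gm12657, a predicted gene on chromosome 4, had ratios of 1.03 and -0.69, and Bach1, a repressor of heme and antioxidant genes, had 1.51 and 0.92.

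Mup20, the urinary pheromone protein darcin, was at 10.68 to 14.30 in Rapa males (median 12.75) and 7.45 to 12.09 in Rapa females (median 10.23), and the groups overlapped. The ratio was 2.48 on Rapa (SE 0.40, adjusted p = 4.91e-06) and 0.76 on control (SE 0.44, adjusted p = 0.158), and Rapa females were 1.72 lower than control females (adjusted p = 0.00298) while Rapa males differed from control males by 0.00. Its interaction of 1.72 (95% interval 0.53 to 2.91, adjusted p = 0.0328) did not pass with median centring of the arrays (1.36, adjusted p = 0.074) or with runs of animal numbers as a block (1.645, adjusted p = 0.0872). Nor did it pass without control females 6 to 9 (1.79, adjusted p = 0.076), control female 6 (1.58, adjusted p = 0.0603) or control female 8 (1.63, adjusted p = 0.0546).

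Sqle, the squalene epoxidase of cholesterol synthesis, was the only transcript of the 16 that was higher in Rapa females. It was at 7.92 to 9.44 in Rapa males (median 8.46) and 8.85 to 10.80 in Rapa females (median 9.89), with ratios of -1.24 on Rapa and -0.11 on control. Neither sex passed the test of diet, and its brighter probe had ratios of -0.83 and 0.01. The interaction of -1.12 (adjusted p = 0.0229) was lost without control females 6 to 9 (-1.0, adjusted p = 0.125) and without the mice of a high neutrophil level (-0.93, adjusted p = 0.119). It was also lost with runs of animal numbers as a block (-1.12, adjusted p = 0.0545). Without the mice of a high neutrophil level the Rapa ratio itself was no longer called (-0.91, adjusted p = 0.011).

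**Figure D4:**
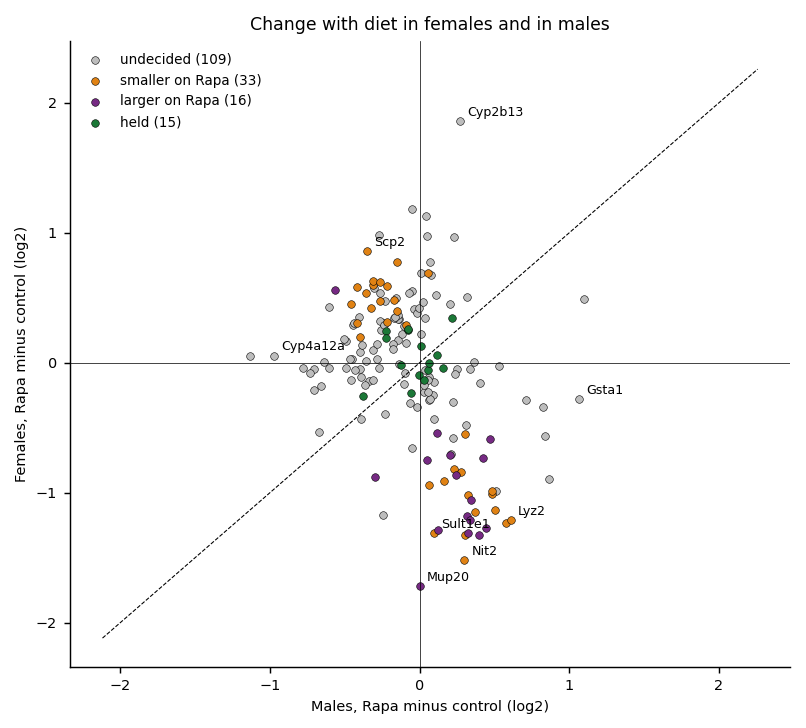
Difference between Rapa and control (log2) in females (vertical axis) against the same difference in males (horizontal axis) for the 173 transcripts called on either diet, coloured by class. Transcripts on the dashed line changed equally in both sexes, and those with a larger difference on Rapa lie below it apart from Sqle.

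Lists of genes with known roles in dimorphic liver were then counted, each gene by its brightest probe. Of 48 genes listed as male-biased in liver, 34 were measured, and 13 were called higher in Rapa males and 0 in Rapa females, against 45 (0.521%) and 26 (0.301%) of the 8634 autosomal genes. On control 18 were called higher in males and 1 in females (0.811% and 0.429% of all genes). The median ratio was 0.85 on Rapa and 1.21 on control, against -0.02 and 0.00 over all genes, and 26 of the 34 had a smaller absolute ratio on Rapa (5106 of 8634 over all genes). Interactions were called for 2 of them (18.8% of all genes). The mean level of the 34 genes was 10.46 to 11.95 in Rapa males (median 11.06) and 9.76 to 10.29 in Rapa females (median 9.93), so the groups did not overlap.

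Of 55 genes listed as female-biased, 27 were measured, and 8 were called higher in Rapa females and 0 in Rapa males (0.301% and 0.521% of all genes). On control 8 were also higher in females (0.429% of all genes). The median ratio was -0.55 on Rapa and -0.92 on control, and 18 of the 27 had a smaller absolute ratio on Rapa (5106 of 8634 over all genes). The interaction was called for 1 (18.8% of all genes). Cyp4a14, a fatty acid hydroxylase of this list, had ratios of 1.58 on Rapa and 1.78 on control, opposite to the list. The mean level of the 27 genes was 8.58 to 9.56 in Rapa males (median 9.18) and 9.34 to 10.90 in Rapa females (median 10.13), with a small overlap.

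**Figure D5:**
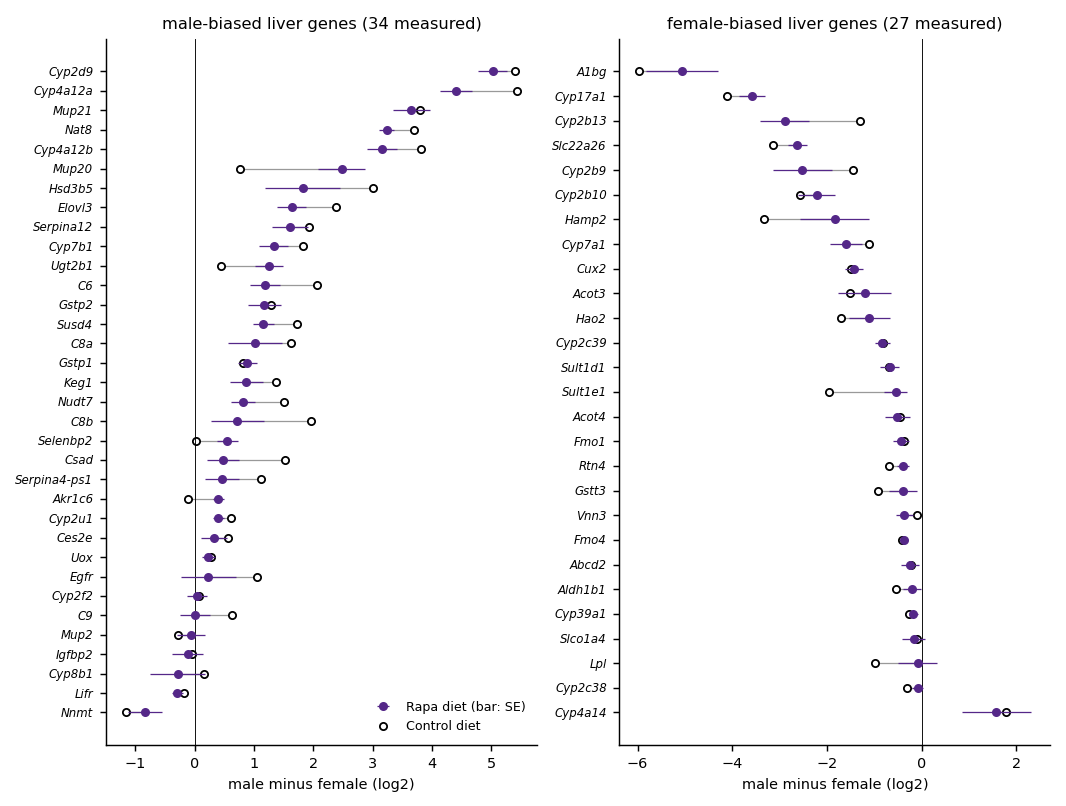
Ratio of males to females (log2, horizontal axis) for the 34 measured male-biased and 27 measured female-biased liver genes, with the Rapa ratio as a filled point (bar, 1 SE) and the control ratio as an open point. Most filled points lie nearer to 0 than the open point of the same gene, in 26 of 34 and 18 of 27 genes. Over all autosomal genes the ratio was nearer to 0 on Rapa in 5106 of 8634.

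Growth hormone signaling and regulators of sex bias had 28 of 39 genes measured, of which 1 was called higher in Rapa males (Bcl6) and 1 in Rapa females (Cux2). For this list and those below, the shares called over all 8634 autosomal genes were 0.521% (higher in Rapa males) and 0.301% (higher in Rapa females). Igfals, which carries insulin-like growth factors in plasma, had a ratio of -0.89 on Rapa (adjusted p = 3.23e-06) and -0.55 on control, and the xenobiotic receptor Nr1i2 had 0.59 and 0.32. Of 38 measured P450 genes of drug and fatty acid metabolism, 3 were called in each direction on Rapa, and Cyp2r1, a vitamin D 25-hydroxylase detected in no Rapa female, had measured ratios of 0.40 and -0.09. Of 9 measured major urinary proteins and lipocalins, 3 were higher in Rapa males.

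Conjugating enzymes had 44 of 60 genes measured, with 5 higher in Rapa males and 0 in Rapa females (0.521% and 0.301% of all genes). Tpmt, a methyltransferase of thiopurines, had ratios of 0.70 on Rapa and 0.26 on control with a called interaction (0.44, adjusted p = 0.0208) that was lost under 6 other settings (0.27 to 0.42), median centring and leaving out control females 6 to 9 among them, Gstp1 had 0.89 and 0.82, and Fmo4, a flavin monooxygenase, had -0.36 and -0.41. Of 33 measured genes of steroid and bile acid metabolism, 1 was called higher in Rapa males and 2 in Rapa females. Cyp7b1, the oxysterol hydroxylase, had ratios of 1.33 and 1.83. Cyp7a1, the rate-limiting enzyme of bile acid synthesis, had -1.6 and -1.12, and Slc27a5, the bile acid CoA ligase, had -0.51 and -0.10. Akr1c14, a hydroxysteroid dehydrogenase, had a ratio of 0.84 on Rapa and 0.00 on control.

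Of 46 measured genes of complement, coagulation and serpins, 2 were called higher in Rapa males and 11 had a called interaction (background 18.8%). Serpina12, the adipokine vaspin, had ratios of 1.6 and 1.93, coagulation factor F7 had -0.90 and -0.68, Serpind1, a thrombin inhibitor, had -0.69 and -0.14, and Masp1, a protease of the lectin pathway, had -0.51 and -0.22. Of 53 measured genes of lipid metabolism, 5 were higher in Rapa males and 0 in Rapa females (0.521% and 0.301% of all genes). Elovl3, a fatty acid elongase detected in no Rapa female, was at least 2.22-fold higher in Rapa males (measured ratio 1.64, against 2.38 on control, where it was at least 3.71-fold higher in males). Plin2, which coats lipid droplets, had ratios of 1.15 and 0.76, and its call on Rapa was lost without the mice of a high neutrophil level (0.96). Rbp4, the retinol carrier of plasma, from the list of urinary proteins and lipocalins, had 0.81 and -0.20.

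Several transcripts with large control ratios gave no decision on Rapa. Hsd3b5, a steroid dehydrogenase of male liver, was not above background in any female on either diet. On control it was at least 6.1-fold higher in males, and on Rapa the measured ratio of 1.82 (SE 0.63, adjusted p = 0.0218) missed the call. Hamp2, a hepcidin, had ratios of -1.84 (SE 0.73, adjusted p = 0.0451) and -3.33, an interaction of 1.5 (95% interval -0.68 to 3.68). That interval includes both 0 and values near the size of the control ratio.

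The 12 Rapa males were not alike. Over the 54 transcripts higher in Rapa males, Rapa male 12 was among the lowest 3 of the 12 for 39 of them, Rapa male 7 for 33 and Rapa male 11 for 26, while each of the other 9 was for at most 16. These 3 mice had the lowest Rapa male levels of Cyp4a12a, at 9.31, 10.14 and 10.91. Rapa male 12, the single Rapa male with a high neutrophil level, was also among the highest 3 for 21 of the 32 transcripts higher in females. This is a description of the spread within the group, and no comparison was made between these mice and the others.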

How the data were processed

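The authors read bead intensities from the scans in Genome Studios (1.6) and deposited them as linear, non-normalized signals for 25697 probes, each with a detection score, a fraction from 0 to 1 in which 1 stands for a detected probe. They also deposited log2 values of 17082 probes, transformed and quantile-normalized in Matlab (2011a), which served as an alternative here. Slide and batch were not given in the sources used here.

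The deposited signals were log2-transformed without an offset and quantile-normalized over all 42 arrays, and the 12719 probes with a detection score over 0.95 on at least 9 arrays were tested. Probe names came from the platform annotation, updated through Entrez numbers to the RefSeq table of GRCm38.p6, which gave 1 symbol to 11980 of the tested probes (94.2%). The fit was made in limma 3.58.1 (R 4.3.3, statmod 1.5.0) on the means of the 4 groups over all 42 arrays, with moderated tests and Benjamini-Hochberg adjustment over all tested probes. All adjusted p-values are from this fit or, where a setting is named, from the same fit under that setting. Replicates are separate mice by the labels, and their number limits the precision. A dimmer sex that no array detected gives a bound, in which the brighter group's mean is set against the lowest detected signal of the dim arrays or the dim probe's own signal, whichever is higher.

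The genes named are the 12 with the largest called ratio in each direction on Rapa, up to 10 each of the transcripts with a smaller and a larger difference by the size of the interaction, up to 8 held transcripts with the narrowest interval, and up to 4 genes of each list by adjusted p on Rapa. These rules, the lists and the thresholds were chosen with earlier results of these data known. The scripts were tested on simulated data. Alternatives were the deposited log2 values, background correction with normexp, median centring, other detection filters, an equal-variance t-test, a fit on the compared arrays, array weights, blocks by replicate number and by runs of animal numbers, 1 probe per gene, other thresholds and leaving out mice. Replicate numbers are shared by the groups, and no label ties the same-numbered mice to each other.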

Additional observations from a re-analysis of the deposited data

Results flagged for a closer look

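In 13 of the 136 control groups examined for the named transcripts, a single mouse lay far from the rest by Dixon's test. Chance alone marks about 1 in 20 groups, and the Rapa groups, with more than 10 mice, were not examined. Control male 3 was that mouse for 8 transcripts. It was low for Cyp4a12a (10.17, others 12.31 to 13.30), Cyp4a12b (8.71, others 10.51 to 11.96), Elovl3 (7.29, others 8.90 to 10.15), Paqr7 (8.64, others 9.46 to 10.33), Nr1i2 (8.93, others 9.47 to 9.83) and Akr1c14 (7.95, others 9.02 to 9.54). It was high for Mt1 (15.64, others 10.91 to 12.72) and Sybu (8.16, others 7.01 to 7.40). Control male 8 was high for Eci3 (7.5, others 7.18 to 7.33). Among control females, mouse 9 was high for Cyp2d9 (10.51, others 7.68 to 8.93) and low for Fmo4 (7.40, others 7.86 to 8.31), mouse 7 was high for Hsd17b6 (12.15, others 10.06 to 11.05) and mouse 6 was high for Atp5e (10.39, others 9.23 to 9.73).

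The male-female ratio differed between Rapa and control mice by the test of the interaction in limma for 26 of the 68 named probes, many of which were named for this difference. Among transcripts with a smaller difference on Rapa, the ratio on Rapa minus the ratio on control was 1.82 for Lyz2 and Nit2, 1.81 for Gng5, 1.63 for Serpinc1 and Rida, 1.51 for Hsd17b6, 1.49 for Ctss, 1.47 for Selenop, 1.41 for Sult1e1 and 1.34 for Txn1. Among those with a larger difference it was 1.73 for Gm12657, 1.72 for Mup20 and Zfand6, 1.63 for Aadac, 1.55 for Ptma, 1.5 for Ist1, 1.41 for Atp5e, 1.40 for Sdhd, 1.16 for Slc38a4 and -1.12 for Sqle. Among list genes below the call on both diets it was 0.49 for Cyp2r1, 0.44 for Tpmt, -0.40 for Slc27a5, 0.84 for Akr1c14, 1.01 for Rbp4 and -0.54 for Serpind1.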

How the results depend on the processing

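No called ratio on Rapa and no called interaction of a named transcript changed sign under any setting run, but the balance of the control calls turned round at the looser threshold. The 86 Rapa calls were all made with the deposited log2 values, and 73 with median centring, 76 without Rapa females 1 to 4 and 59 without the mice of a high neutrophil level. Of the counts in the text (54 and 32 higher in Rapa males and females, 86 and 51 higher in control males and females, 33 smaller, 16 larger and 15 held on Rapa), normexp background correction gave 118, 60, 68, 56 and 38 in place of 54, 32, 33, 16 and 15, and 105 in place of 51. The adjusted p under 0.05 with 1.5-fold gave 304, 158, 272 and 316 for the 4 counts of sex calls. Median centring gave 144 and 25 on control, 77 smaller and 9 larger. Probes detected on all 42 arrays gave 20 higher in Rapa females and 55 in control males. Without control females 6 to 9 there were 11 smaller, and without Rapa females 1 to 4 there were 26 larger. Without the mice of a high neutrophil level there were 17 smaller, 8 larger and 27 held. Choosing transcripts by the mean of both diets' ratios gave 9 smaller and 2 larger, array weights gave 26 held and a limit of 1.5-fold gave 5 held. Leaving out each mouse gave 49 to 61, 30 to 36, 78 to 94, 45 to 63, 29 to 41, 11 to 23 and 12 to 20.

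With the replicate number as a block the counts were 61, 33, 85, 51, 30, 19 and 21. Over 58 same-numbered pairs of mice from different groups the median correlation of deviations was 0.019, with 26 over 0.1. Over 601 differently numbered pairs it was -0.00095, with 215 over 0.1. A small median cannot exclude a pairing, so nothing is concluded from this check. Among single transcripts, Gpnmb and Mt1 lost their calls with the t-test, the fit on the 2 groups and the block of animal-number runs, Mt1 also without Rapa males 1, 3, 4, 9 or 10 or Rapa females 3, 5, 8, 9, 10 or 11 left out singly, Gsta1 with the t-test, and the interactions of Tpmt, Slc27a5, Akr1c14 and Serpind1 were lost without control females 6 to 9. With median centring the interactions of Rbp4 (0.6, adjusted p = 0.0751), Tpmt (0.28), Akr1c14 (0.58) and Slc38a4 (0.79) were lost and those of Masp1 (-0.64), Igfals (-0.72), Ppara (-0.53), Elovl3 (-0.97), Cyp4a12b (-0.92) and the held probe of Acnat2 (-0.71) passed. Ratios of Atp5e, Sdhd and Paqr7, within 0.02 of the threshold of 1, crossed it when 1 of many single mice was left out, the lowest being 0.96, 0.93 and 0.92, and those of Gm12657 (0.99, without Rapa male 9 or Rapa female 7) and Ptma (0.99, without Rapa male 9) did so too. The interaction of Nat8 passed without control male 6 or 10, Rapa male 3 or 10, control female 5 or 9, or Rapa female 1 or 11 (-0.53 to -0.51), that of Gsta2 without Rapa male 9 (1.95) or Rapa female 2 (2.0), and that of Cyp2b13 without control female 4 (-1.95). That of Slc27a5 was lost without any 1 of 12 mice (-0.36 to -0.39). Without control male 3, the interactions of Cyp4a12b (-0.89, adjusted p = 0.0421) and Elovl3 (-0.96, adjusted p = 0.025) passed. Except where a value or the setting itself shows it, the cause was not tested. Probes near background give only bounds in the dimmer sex.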

Other observations

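None of the marker lists of cell types held a sex call on either diet, by the brightest probe of each gene. The median ratio of the 7 measured MHC class II genes was 0.23 on Rapa and -0.56 on control, that of the 9 T and NK cell genes was 0.21 on Rapa and -0.14 on control, and that of the 7 B and plasma cell genes was 0.00 on Rapa and -0.33 on control. Stellate cell and fibroblast genes had a median of 0.16 on Rapa and -0.04 on control (12 measured), sinusoidal endothelial genes -0.18 and -0.22 (12 measured), bile duct genes 0.18 and -0.02 (4 measured) and erythroid genes -0.33 and -0.38 (3 measured). The median over all autosomal genes was -0.02 on Rapa and 0.00 on control. The mean level of the MHC class II genes was 8.96 to 11.57 in Rapa males and 9.13 to 10.23 in Rapa females, and 8.98 to 10.69 in control males and 9.48 to 12.15 in control females, so the sexes overlapped on both diets.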
